A study of Mus musculus with 32 samples.

Results

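Cell death by pyroptosis, necroptosis and apoptosis is carried out by a small set of enzymes, receptors and pore-forming proteins. The 8 genes described here, *Casp1*, *Casp4*, *Gsdmd*, *Zbp1*, *Ripk3*, *Mlkl*, *Casp8* and *Tnfsf10*, were chosen by name as such effectors. Their rows were found by the Ensembl identifier among the 54281 genes of the count table. The choice was made with earlier results of these data known, so counts of these genes beside shares of all genes are descriptions. The genes were measured by RNA sequencing in bone marrow-derived macrophages (BMDMs), which are macrophages grown in culture from mouse bone marrow with supernatant of L929 cells. The cells came from *Trex1* FL/FL and *Trex1* WT/FL mice, and TREX1 is a DNA exonuclease that removes DNA from the cytosol. Both genotypes carried a *R26* CreERT2 allele, whose Cre recombinase becomes active when 4-hydroxytamoxifen (4-OHT) binds to it and then deletes the loxP-flanked part of *Trex1*. FL/FL cells can lose both copies, whereas WT/FL cells can lose 1 copy and keep the wild type allele. Cultures received 4-OHT at 2 µg/ml over 22 h or no treatment and were harvested on days 1, 2, 3 and 4 after treatment, which gives 16 groups of 2 libraries each and 32 libraries in all. The labels name no animal, batch, age or replicate number, so p-values measure only the spread between these libraries, which may be technical, and replicate numbers used here follow the order of deposition.

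Pyroptosis starts when inflammasomes activate caspase-1, or when bacterial lipopolysaccharide activates caspase-11, the product of mouse *Casp4*. Both enzymes cut gasdermin D, and its fragment forms pores in the plasma membrane. In necroptosis, RIPK3, engaged by ZBP1 or by death receptor complexes, phosphorylates MLKL, which then disrupts the membrane. Caspase-8 starts apoptosis below death receptors such as those bound by TRAIL, the product of *Tnfsf10*, and it restrains RIPK3. Several of these genes are known in macrophages as targets of interferons.

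All 8 genes lie on autosomes in the build GRCm39. *Casp1* (ENSMUSG00000025888.6, chr9:5298508-5307290) and *Casp4* (ENSMUSG00000033538.13, chr9:5308828-5336783) are neighbours on the + strand, *Gsdmd* (ENSMUSG00000022575.5) spans chr15:75733974-75739257, and *Zbp1* (ENSMUSG00000027514.14) spans chr2:173033815-173060724. *Ripk3* (ENSMUSG00000022221.14) spans chr14:56022452-56026324, *Mlkl* (ENSMUSG00000012519.14) chr8:112036296-112065168, *Casp8* (ENSMUSG00000026029.14) chr1:58834375-58886665 and *Tnfsf10* (ENSMUSG00000039304.11) chr3:27371033-27396576. The counts cover the exons of a gene, UTRs included. The share of 31-base words in the annotated transcripts of a gene that also occur in transcripts of other genes was 0% for *Ripk3*, 0.394% for *Zbp1*, 1.69% for *Casp4*, 2.08% for *Tnfsf10* and 2.37% for *Casp1*. It was 7.56% for *Casp8* and 8.75% for *Gsdmd*, whose partner Gm62577 lies antisense to it. The share was 18.7% for *Mlkl*, mainly with the antisense gene Gm63800 and with *Rps27a*, the highest share of the 8. Strand use in the counting is not given in the sources used here, so reads of a gene and of its antisense partner may not have been told apart.

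RefSeq promoter windows, which hold 250 bases before and 50 after a gene's start in the build GRCm38.p6, were matched for 6 of the 8 genes by symbol. Windows are shown for the 3 matched genes that rose most on day 4 and for *Casp8*, which did not pass the test on that day. Capitals mark matches to AANNGAAA on either strand, the core bound by interferon regulatory factors.
Tnfsf10, chr3:27316827-27317126 (+ strand): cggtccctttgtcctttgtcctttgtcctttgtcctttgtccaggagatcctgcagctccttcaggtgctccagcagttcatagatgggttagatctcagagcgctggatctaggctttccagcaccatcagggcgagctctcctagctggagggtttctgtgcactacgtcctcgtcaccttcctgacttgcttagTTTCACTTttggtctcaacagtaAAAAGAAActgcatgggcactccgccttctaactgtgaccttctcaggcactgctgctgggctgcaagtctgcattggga
Casp4, chr9:5308599-5308898 (+ strand): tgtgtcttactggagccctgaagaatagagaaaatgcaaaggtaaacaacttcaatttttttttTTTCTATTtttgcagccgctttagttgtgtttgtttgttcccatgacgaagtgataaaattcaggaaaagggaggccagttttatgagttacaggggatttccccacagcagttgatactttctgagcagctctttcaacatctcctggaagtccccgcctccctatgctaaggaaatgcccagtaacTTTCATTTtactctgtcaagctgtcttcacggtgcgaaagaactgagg
Mlkl, chr8:111338156-111338455 (- strand): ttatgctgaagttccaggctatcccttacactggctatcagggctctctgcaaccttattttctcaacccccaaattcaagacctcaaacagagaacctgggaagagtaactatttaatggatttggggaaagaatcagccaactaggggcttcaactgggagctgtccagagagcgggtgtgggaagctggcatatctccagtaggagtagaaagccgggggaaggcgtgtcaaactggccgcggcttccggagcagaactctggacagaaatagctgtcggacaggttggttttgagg
Casp8, chr1:58802252-58802551 (+ strand): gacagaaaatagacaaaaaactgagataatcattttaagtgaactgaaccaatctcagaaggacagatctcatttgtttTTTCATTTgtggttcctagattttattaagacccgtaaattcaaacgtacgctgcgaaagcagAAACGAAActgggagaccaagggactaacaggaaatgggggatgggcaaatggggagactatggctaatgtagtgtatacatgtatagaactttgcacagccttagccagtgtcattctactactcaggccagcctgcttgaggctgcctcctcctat
None of the windows of the 6 genes held GAAANNGAAA, the core of the interferon-stimulated response element, which 3.44% of 32851 windows hold on either strand. TTCNNNGAA, the core of the gamma-activated site, was also found in none of them, against 8.3% of all windows. AANNGAAA lies within every GAAANNGAAA match, was searched after these cores gave no match, and occurred in 23.9% of all windows. It was present 2 times each in the windows of *Tnfsf10*, *Casp4* and *Casp8* and was not found in those of *Casp1*, *Mlkl* and *Ripk3*. In *Tnfsf10* the leftmost bases of the matches lay 30 and 53 bases before the start, and in *Casp8* 108 and 171 bases before it. *Casp4* has another window whose start lies a few bases further on and which holds the same matches. A match of these letters is a description and not a binding site.

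The library totals ranged from 35120505 to 63760884 counts (median 44841991). In 4-OHT-treated FL/FL cells *Trex1* had 0 counts in both libraries of days 1, 3 and 4. Its libraries of day 2 held 14 and 9 counts, whereas 4-OHT-treated WT/FL libraries held 758 to 3622 counts, a check that fits the labels but is limited by *Atrip*, whose transcripts contain all words of *Trex1*. All 8 macrophage markers were expressed, with sums of 15161 to 48634 CPM (counts scaled to library size), and the sums of treated FL/FL libraries were lower than those of treated WT/FL libraries on day 2 (26559 and 28634 against 31977 and 34063 CPM) and day 3 (39490 and 39084 against 48038 and 45913 CPM). On day 4 the sums of both overlapped (31776 and 29849 against 31825 and 31216 CPM). *Lyz2* weighed most in these sums, with 11134 to 33994 CPM, followed by *Csf1r* with up to 6240 CPM. Single markers were not compared between the groups. Neutrophil markers summed to 4.65 to 18.8 CPM, and 3 of their 7 genes stayed under 1 CPM in every library. Of the 4 T cell markers, *Cd4* gave sums of up to 52.9 CPM and the other 3 stayed under 1 CPM. Sums of NK cell, B cell, mast cell and erythroid markers were at most 0.205 CPM, those of fibroblast markers at most 2.27 CPM and those of dendritic cell markers at most 2.67 CPM. Mitochondrial genes held 1.36 to 3.95% of the counts, with 2.16 and 2.22% in treated FL/FL against 2.98 and 2.61% in treated WT/FL libraries on day 2, 1.36 and 1.43% against 2.09 and 2.61% on day 3, and 1.69 and 1.98% against 2.83 and 3.23% on day 4. The part of these lower sums and shares in the differences of days 2, 3 and 4 was not tested.

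Levels are given as CPM, scaled by TMM factors, and differences as log2 fold changes. Their p-values come from the quasi-likelihood test of edgeR and were adjusted by the method of Benjamini and Hochberg over all 15257 genes that passed a filter on low counts. All 8 genes passed it. In bulk samples, fewer cells of a type and less RNA per cell cannot be told apart. On day 1 after treatment, none of the 8 genes passed the test between treated genotypes. *Tnfsf10* was 4.32-fold higher in treated FL/FL than in treated WT/FL cells on day 2 and 6.15-fold higher on day 4, and *Zbp1* was 2.62-fold and 5.45-fold higher. On day 3 the genes that passed, *Zbp1*, *Mlkl*, *Tnfsf10*, *Casp4* and *Casp1*, were 1.33-fold to 2.10-fold higher. *Gsdmd* passed on days 2 and 4 and *Casp8* on day 2, and *Ripk3* was lower on day 4.

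**Figure D1:**
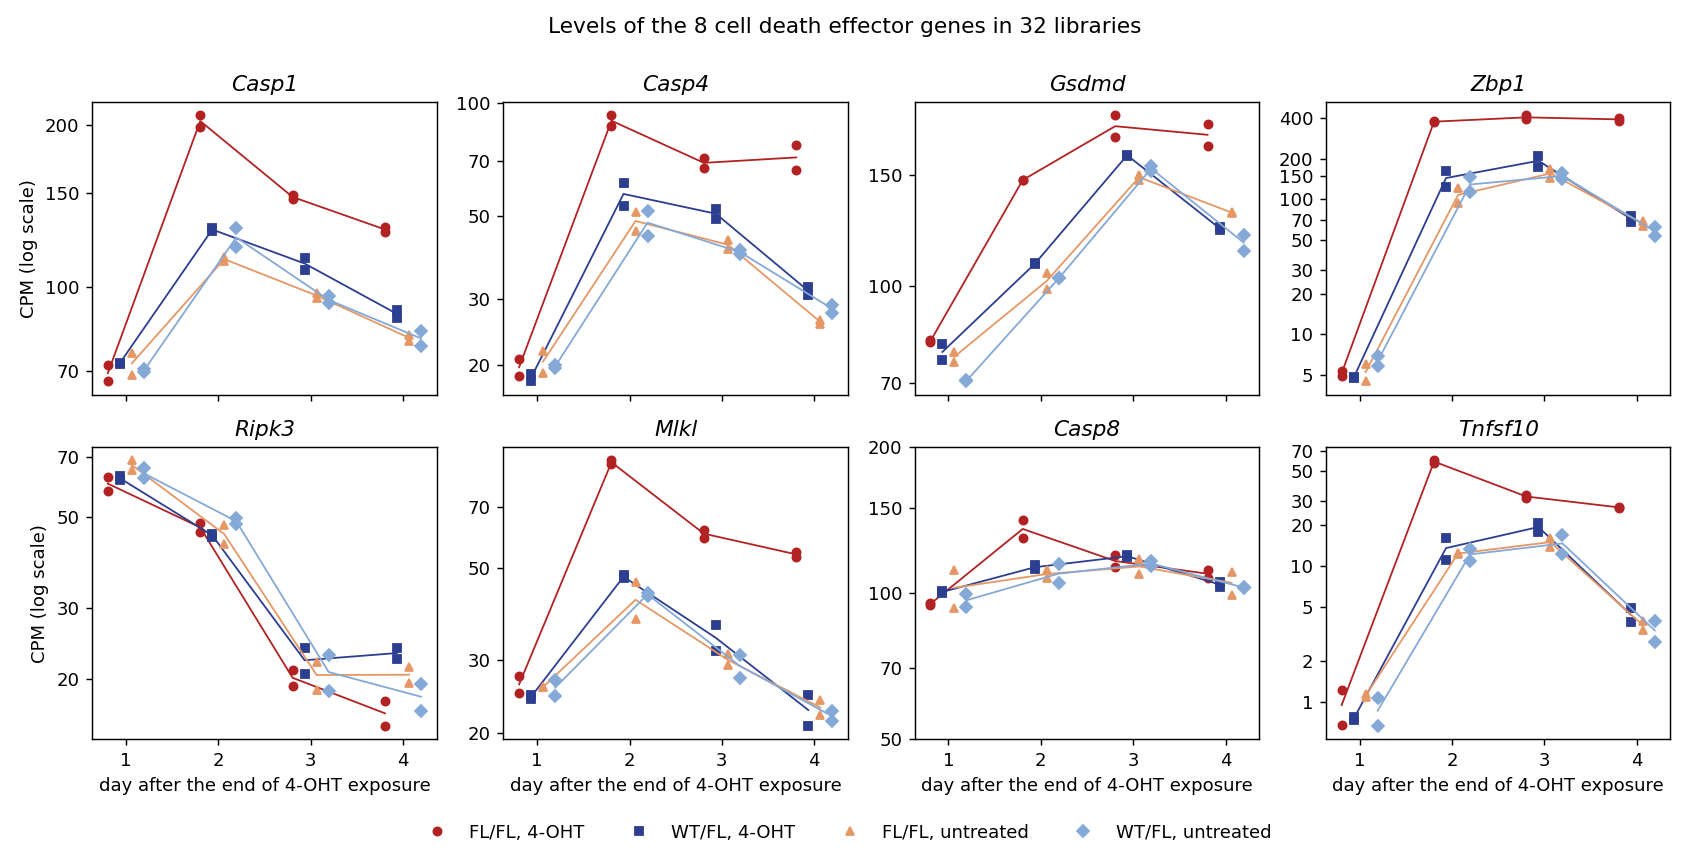
Levels of the 8 genes in CPM (log scale, a different range in each panel) by day after 4-OHT exposure. Each point is 1 of the 32 libraries, the lines join the means of the 2 libraries of a group, and colours show genotype and treatment. Treated FL/FL libraries lie above the other 6 of the day for *Zbp1*, *Tnfsf10*, *Mlkl*, *Casp4*, *Casp1* and *Gsdmd* on days 2, 3 and 4, while *Ripk3* fell from day 1 to day 3 in every group.

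The comparison of 4-OHT-treated FL/FL with 4-OHT-treated WT/FL cells sets loss of both *Trex1* copies against loss of 1 copy. By the protein blots of the study, much TREX1 remained in FL/FL cells on day 2, very little on day 3 and none detectable on day 4. The study called genes at an adjusted p below 0.01 with an absolute log2 fold change above 1.5. By this rule 0, 1, 0 and 2 of the 8 genes were higher on days 1, 2, 3 and 4, against 0.00655%, 0.498%, 0.485% and 1.65% of all tested genes, and 0 of the 8 were lower on each day, against 0.00655%, 0.0852%, 0.387% and 1.32%. The called genes were *Tnfsf10* on days 2 and 4 and *Zbp1* on day 4. For day 1, the counts at an unadjusted p below 0.05 were 0 with edgeR (2.02% of all genes) and 0 with DESeq2. Without replicate 1 of treated WT/FL on day 2, *Zbp1* was called as well, which gave 2 genes. With the adjusted p alone, 0, 7, 5 and 6 of the 8 were higher on these days, against 0.00655%, 5.69%, 6.69% and 9.84% of all genes. *Ripk3* alone was lower, on day 4, where 11.7% of all genes were. The count of day 3 was 3 without replicate 1 of treated WT/FL. The median log2 fold change of the 8 genes was 0.07, 0.66, 0.43 and 0.85 on days 1 to 4, beside medians of all genes of -0.01, -0.01, -0.01 and -0.04. Both treated FL/FL libraries lay above all 6 other libraries of the day for 1 of the 8 genes on day 1 (2.63% of all genes), 7 on day 2 (17.3%), 6 on day 3 (18.8%) and 6 on day 4 (18.3%).

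**Figure D2:**
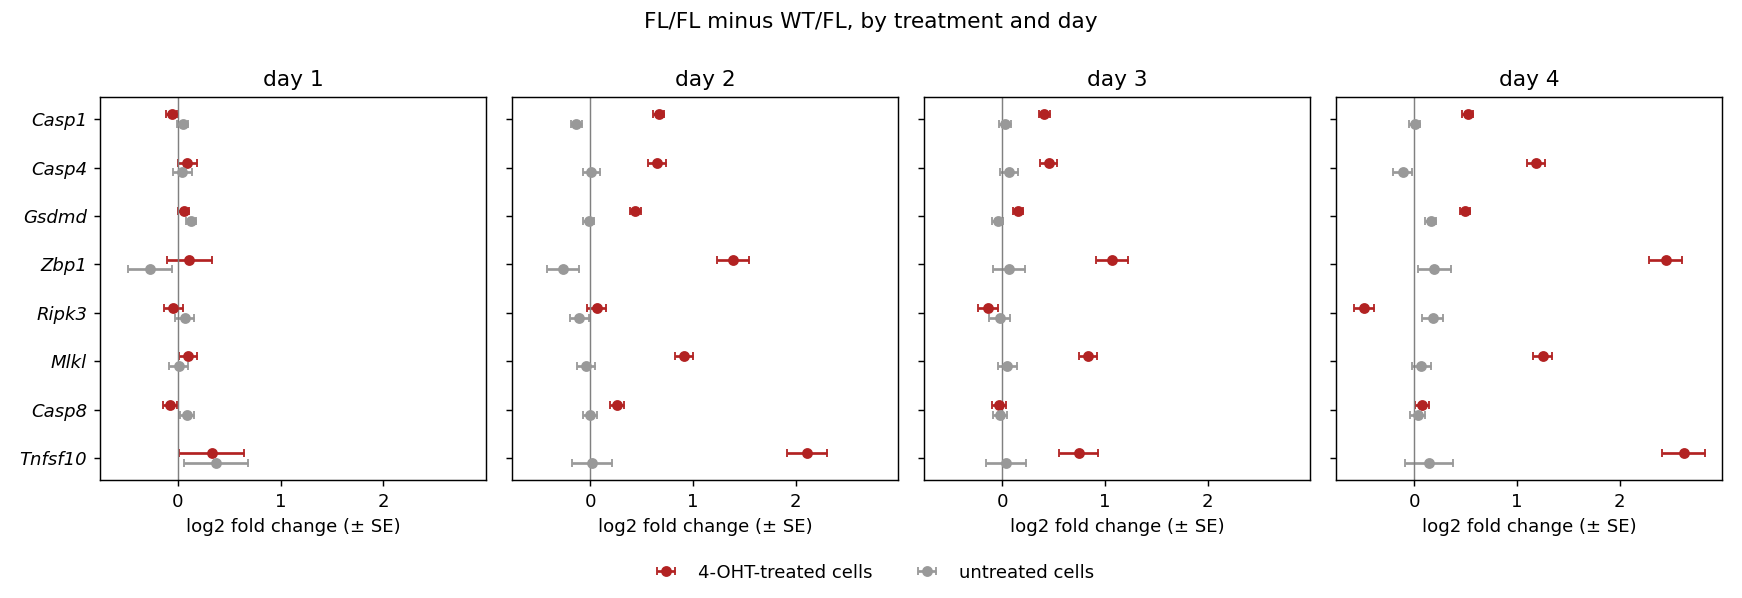
Log2 fold change of FL/FL minus WT/FL cells on each day, for 4-OHT-treated cells in red and untreated cells in grey, with bars of 1 SE from the edgeR fit. Treated cells differ from 0 by up to 2.62 (*Tnfsf10*, day 4), and untreated cells by at most 0.37.

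*Casp1* encodes the protease of canonical inflammasomes, which also matures IL-1β and IL-18. On day 1 its level was 67.0 and 71.7 CPM in treated FL/FL libraries and 68.9 to 75.7 CPM in the other 6. On day 2 treated FL/FL libraries held 199 and 209 CPM, treated WT/FL libraries 129 and 127 CPM and untreated libraries 112 to 129 CPM. On day 4 these values were 129.6 and 127 CPM, 87.8 and 90.9 CPM, and 77.9 to 83.0 CPM. Treated FL/FL libraries overlapped with the others on day 1 and lay above all of them on days 2, 3 and 4. Treated WT/FL libraries overlapped with untreated WT/FL libraries on day 2 and lay above all untreated libraries on days 3 and 4. *Casp1* rose in treated FL/FL against treated WT/FL cells by a log2 fold change of 0.67 ± 0.05 (SE, n = 2 per group) on day 2 (adjusted p = 1.2e-09), 0.41 ± 0.05 on day 3 (adjusted p = 2.6e-06) and 0.52 ± 0.05 on day 4 (adjusted p = 1.7e-08).

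*Casp4* encodes caspase-11, the sensor protease of the non-canonical inflammasome. Its level on day 1 was 18.7 and 20.7 CPM in treated FL/FL libraries and 18.1 to 21.9 CPM in the others. On day 2, 86.8 and 92.7 CPM were measured in treated FL/FL, 61.3 and 53.2 CPM in treated WT/FL and 44.3 to 51.7 CPM in untreated libraries. On day 4, treated FL/FL libraries still held 77.1 and 66.1 CPM, whereas treated WT/FL libraries held 32.3 and 30.8 CPM and untreated ones 25.7 to 29.0 CPM. Treated FL/FL libraries lay above all others on days 2, 3 and 4, and the gap was widest on day 4, when the level of the other groups was lower than on day 3. *Casp4* was higher in treated FL/FL than in treated WT/FL cells by a log2 fold change of 0.65 ± 0.09 on day 2 (adjusted p = 2.6e-06), 0.45 ± 0.09 on day 3 (adjusted p = 0.00032) and 1.18 ± 0.09 on day 4 (adjusted p = 2.6e-11). The call of day 3 was lost without replicate 1 of treated WT/FL (adjusted p = 0.0121).

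*Gsdmd*, the pore-forming substrate of both caspases, rose further from day 2 to day 3 in each group. It held 70.5 to 82.0 CPM in the 8 libraries of day 1. On day 2 it was at 147 and 147 CPM in treated FL/FL, 108 and 109 CPM in treated WT/FL and 98.9 to 105 CPM in untreated libraries. On day 3 the values were 186 and 172 CPM, 161 and 161 CPM, and 147 to 155 CPM. On this day the groups lay close to each other but did not overlap. The log2 fold change between treated genotypes was 0.44 ± 0.05 on day 2 (adjusted p = 3.7e-07), 0.15 ± 0.05 on day 3 (adjusted p = 0.033) and 0.49 ± 0.05 on day 4 (adjusted p = 1.4e-08). Only the differences of days 2 and 4 passed the threshold, and on day 3 DESeq2 gave an adjusted p of 0.0065. On day 4 the level was 181 and 167 CPM in treated FL/FL, 124 and 123 CPM in treated WT/FL and 114 to 131 CPM in untreated libraries.

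*Zbp1*, which encodes a sensor of Z-form nucleic acids that recruits RIPK3, had the widest range of the 8 genes, with an 85.2-fold ratio of the highest to the lowest group mean. On day 1 its level was 5.34 and 4.94 CPM in treated FL/FL, 4.80 and 4.72 CPM in treated WT/FL and 4.48 to 6.84 CPM in untreated libraries. On day 2 it was at 374 and 379 CPM in treated FL/FL, 163 and 124 CPM in treated WT/FL and 93.3 to 145 CPM in untreated libraries. Treated FL/FL libraries, which overlapped with the others on day 1, then lay above all of them, while treated WT/FL overlapped with untreated libraries. On day 3 the values were 419 and 392 CPM, 175 and 211 CPM, and 141 to 167 CPM. On day 4 treated FL/FL libraries held 400.3 and 383 CPM, whereas treated WT/FL libraries held 67.9 and 75.8 CPM and untreated libraries 53.3 to 68.6 CPM. The level in treated FL/FL cells was thus nearly level from day 2 to day 4 while all other groups had fallen by day 4. *Zbp1* was higher in treated FL/FL than in treated WT/FL cells by a log2 fold change of 1.39 ± 0.16 on day 2 (adjusted p = 4.5e-06), 1.07 ± 0.15 on day 3 (adjusted p = 7e-05) and 2.45 ± 0.16 on day 4 (adjusted p = 1.5e-09), the last being 5.45-fold.

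*Ripk3* encodes the kinase of the necroptosis pathway. Its level in the 8 libraries of day 1 was 58.0 to 68.9 CPM. On day 2 treated FL/FL libraries held 48.3 and 46.1 CPM, treated WT/FL libraries 45.5 and 44.7 CPM and untreated libraries 42.9 to 49.6 CPM. On day 3 these were 19.3 and 21.0 CPM, 23.9 and 20.7 CPM, and 18.7 to 23.0 CPM. The level thus declined in every group and the groups overlapped. On day 4, treated FL/FL libraries held 17.7 and 15.4 CPM, treated WT/FL libraries 23.9 and 22.5 CPM and untreated libraries 16.8 to 21.5 CPM. The treated genotypes were apart, but treated FL/FL overlapped with untreated WT/FL cells, and treated WT/FL libraries lay above all untreated libraries. Between treated and untreated FL/FL cells of day 4, *Ripk3* changed by a log2 fold change of -0.32 and did not pass. The day 4 difference of *Ripk3* between treated FL/FL and treated WT/FL cells was -0.49 ± 0.10 on the log2 scale (adjusted p = 0.00037), and the call was lost without replicate 2 of treated FL/FL (adjusted p = 0.0181). Its differences on days 1, 2 and 3 were -0.04 ± 0.09, 0.06 ± 0.09 and -0.14 ± 0.10 and did not pass.

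*Mlkl*, which encodes the executioner of necroptosis and the substrate of RIPK3, was raised on all of days 2, 3 and 4. Its level on day 1 was 24.2 to 27.4 CPM in all 8 libraries. On day 2 it was at 91.0 and 88.8 CPM in treated FL/FL, 47.2 and 48.1 CPM in treated WT/FL and 37.6 to 46.2 CPM in untreated libraries. On day 3 the values were 61.8 and 59.2 CPM, 31.5 and 36.4 CPM, and 27.2 to 31.0 CPM. Both treated FL/FL libraries were above the others. On day 4, 53.3 and 54.6 CPM were measured in treated FL/FL, 20.8 and 24.7 CPM in treated WT/FL and 21.4 to 24.0 CPM in untreated libraries. The log2 fold change was 0.92 ± 0.09 on day 2 (adjusted p = 2e-08), 0.83 ± 0.09 on day 3 (adjusted p = 1e-07) and 1.25 ± 0.09 on day 4 (adjusted p = 1.9e-11).

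*Casp8*, the initiator caspase of death receptor signalling, changed least, with a ratio of 1.43 between the highest and the lowest group mean. Its level ranged from 93.3 to 141 CPM over all 32 libraries. On day 2 treated FL/FL libraries held 141 and 129.7 CPM, treated WT/FL libraries 114 and 112 CPM and untreated libraries 105 to 115 CPM. It was higher in treated FL/FL than in treated WT/FL cells on day 2 by a log2 fold change of 0.26 ± 0.07 (adjusted p = 0.0086). This call was lost without replicate 1 of treated WT/FL (adjusted p = 0.0393), replicate 2 of treated WT/FL (adjusted p = 0.0776) or replicate 1 of treated FL/FL (adjusted p = 0.171), and with upper-quartile factors (adjusted p = 0.0154). On day 3 the groups overlapped, and on day 4 treated FL/FL libraries lay above treated WT/FL libraries but overlapped with untreated FL/FL libraries. For these days the differences of -0.03 ± 0.07 and 0.07 ± 0.07 did not pass.

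*Tnfsf10* encodes TRAIL, a ligand that triggers caspase-8 through death receptors. It was nearly absent on day 1, with 1.23 and 0.685 CPM (59 and 34 counts) in treated FL/FL, 0.780 and 0.739 CPM in treated WT/FL and 0.672 to 1.15 CPM in untreated libraries. On day 2 it was at 56.9 and 59.8 CPM in treated FL/FL, 16.1 and 11.0 CPM in treated WT/FL and 11.0 to 13.4 CPM in untreated libraries. Treated FL/FL libraries lay above all others on this day and on the following ones, while treated WT/FL overlapped with untreated libraries on days 2 and 4. On day 3 the values were 31.3 and 33.4 CPM, 17.9 and 20.8 CPM, and 12.3 to 17.0 CPM. On day 4 they were 27.2 and 26.6 CPM, 3.88 and 4.91 CPM, and 2.76 to 3.99 CPM. The difference between treated genotypes was therefore smaller on day 3 than on the days before and after it. The log2 fold change was 2.11 ± 0.19 on day 2 (adjusted p = 7e-08), 0.74 ± 0.19 on day 3 (adjusted p = 0.0066) and 2.62 ± 0.21 on day 4 (adjusted p = 1.5e-09), which is 4.32-fold on day 2 and 6.15-fold on day 4. The call of day 3 was lost without any 1 of the 4 libraries compared (adjusted p 0.0185 to 0.0966, the highest without replicate 1 of treated WT/FL).

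At an adjusted p below 0.01, none of the 8 genes passed between untreated genotypes, nor between treated and untreated WT/FL cells. Between untreated FL/FL and untreated WT/FL cells edgeR called 0 of 8 genes on each day, against 0%, 0%, 0% and 0.0655% of all genes on days 1 to 4, and 1, 1, 0 and 1 of the 8 had an unadjusted p below 0.05, against 7.4%, 3.85%, 3.07% and 15.8% of all genes. DESeq2 also called 0 of 8 on each day, with no adjusted p for 1 gene on day 4. In WT/FL cells, which lose 1 copy of *Trex1*, treatment with 4-OHT changed 0 of 8 genes on each day in edgeR, against 0.00655%, 0.0918%, 0.341% and 0.216% of all genes. At an unadjusted p below 0.05 there were 1, 1, 5 and 2 of 8, against 2.48%, 3.47%, 8.4% and 7.08% of all genes, and DESeq2 called 0 of 8 on each day with 2, 1, 5 and 2 at an unadjusted p below 0.05. All 8 differences were above 0 in WT/FL cells on days 3 and 4, with medians of 0.22 and 0.16 beside medians of all genes of 0.00 and 0.01. On day 3, both treated WT/FL libraries lay above both untreated WT/FL libraries for 7 of the 8 genes (18.9% of all genes). On day 4 this held for 6 (19.1%), and on days 1 and 2 for 3 each (16.2% and 16.9%). Without the filter on low counts, 2 of 8 passed on day 3 and 1 on day 4, and the share of all genes in that fit is not given here. The log2 fold changes in WT/FL cells on day 3 were 0.22 ± 0.05 for *Casp1* (adjusted p = 0.056) and 0.34 ± 0.09 for *Casp4* (adjusted p = 0.079).

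The effect of 4-OHT was larger in FL/FL than in WT/FL cells for 0, 6, 3 and 6 of the 8 genes on days 1, 2, 3 and 4 by the interaction test of edgeR, against 0%, 3.55%, 2.65% and 5.15% of all genes. On day 1 none of the 8 had an unadjusted p below 0.05, against 3.57% of all genes. The 6 genes of days 2 and 4 were *Casp1*, *Casp4*, *Gsdmd*, *Mlkl*, *Zbp1* and *Tnfsf10*, and those of day 3 were *Casp1*, *Mlkl* and *Zbp1*. *Ripk3* was lower by this test on day 4, as were 5.24% of all genes. The count of day 3 was 1 without replicate 1 of untreated WT/FL, replicate 1 of treated WT/FL or replicate 2 of untreated FL/FL. These are the libraries without which *Casp1* lost its call, and *Zbp1* lost its call of day 3 without any library except replicate 2 of treated WT/FL. *Casp4* lost that of day 2 without replicate 1 of untreated WT/FL, replicate 2 of treated WT/FL or replicate 1 of untreated FL/FL. *Gsdmd* lost that of day 4 without replicate 2 of untreated WT/FL or replicate 1 of treated FL/FL, and without the filter on low counts. The *Ripk3* call of day 4 was lost without replicate 2 of untreated WT/FL, replicate 1 of untreated FL/FL or replicate 2 of treated FL/FL.

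**Figure D3:**
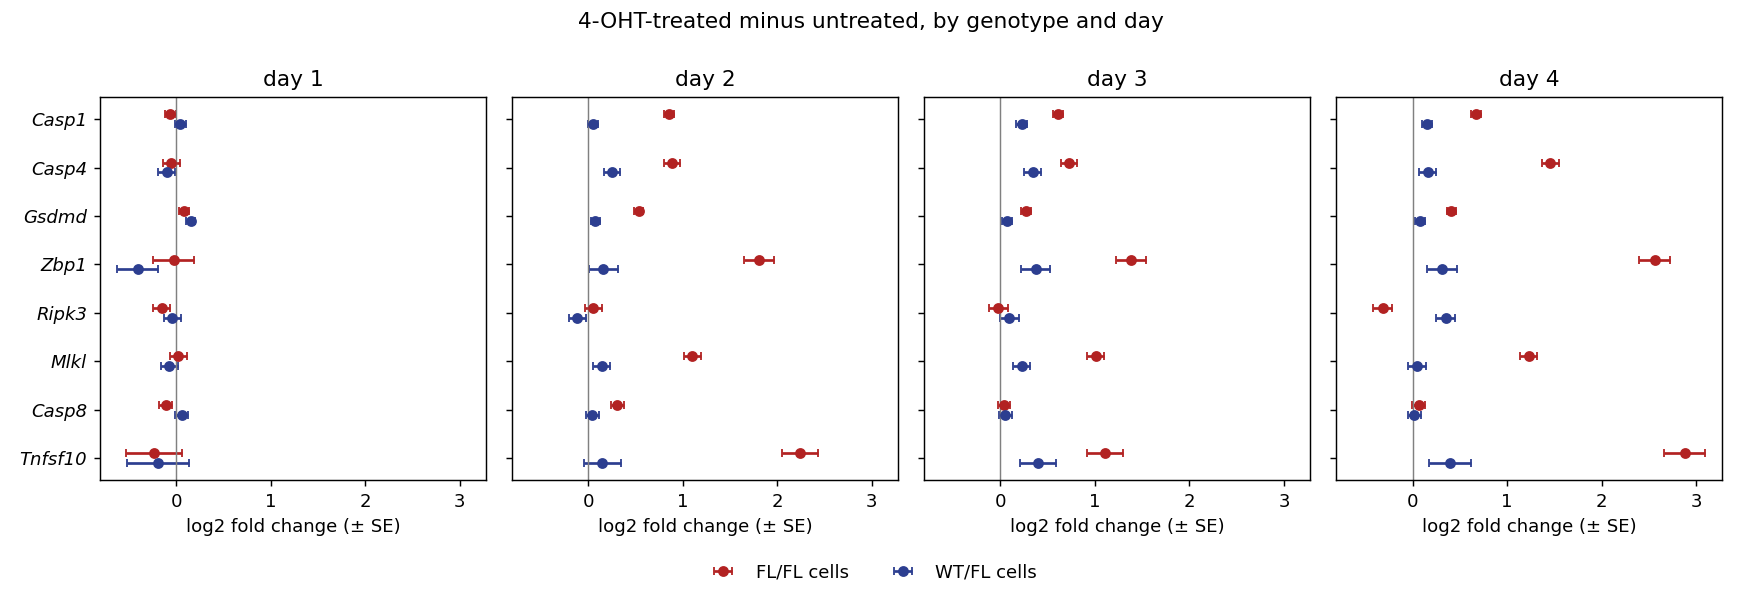
Log2 fold change of 4-OHT-treated minus untreated cells on each day, for FL/FL cells in red and WT/FL cells in blue, with bars of 1 SE from the edgeR fit. The largest change in FL/FL cells is 2.88 for *Tnfsf10* on day 4, and in WT/FL cells the changes lie between -0.41 and 0.40.

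The genes also moved with time in culture, in all 4 combinations of genotype and treatment. From day 1 to day 2, 7 of the 8 rose in treated FL/FL cells and 6 each in treated WT/FL, untreated FL/FL and untreated WT/FL cells, against 21.7%, 20.2%, 20.3% and 20.2% of all genes. All but *Casp8* and *Ripk3* rose in each group. *Zbp1* rose by a log2 fold change of 6.20 ± 0.20 in treated FL/FL, 4.92 ± 0.20 in treated WT/FL, 4.36 ± 0.19 in untreated FL/FL and 4.35 ± 0.19 in untreated WT/FL cells. *Tnfsf10* rose by 5.93 ± 0.25, 4.15 ± 0.25, 3.46 ± 0.24 and 3.81 ± 0.26 on the log2 scale. The rise of these 2 genes thus occurred without 4-OHT as well. *Ripk3* was the 1 gene lower on day 2 than on day 1 in each group, against 19.4%, 18.4%, 18.3% and 18.1% of all genes. Its call was lost in treated FL/FL cells without replicate 1 of day 1 or replicate 2 of day 2, and in untreated WT/FL cells without the same replicate numbers.

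From day 2 to day 3, 5 of the 8 fell in treated FL/FL cells (18% of all genes), and 3 each fell in treated WT/FL (18.6%), untreated FL/FL (18.2%) and untreated WT/FL cells (17.8%). *Casp1*, *Ripk3* and *Mlkl* fell in all 4 groups, and *Casp4* and *Tnfsf10* in treated FL/FL cells. The call of *Casp1* was lost in treated WT/FL cells without replicate 1 of day 2 or of day 3, and in untreated FL/FL cells without replicate 2 of day 2 or of day 3. In treated FL/FL cells *Casp4* lost its call without replicate 2 of day 2 or of day 3, and *Tnfsf10* without replicate 1 of day 3. *Ripk3* changed by -1.22 ± 0.10, -1.02 ± 0.10, -1.15 ± 0.10 and -1.23 ± 0.10 on the log2 scale. *Gsdmd* rose in each group, by 0.28 ± 0.05 in treated FL/FL and by 0.55 to 0.58 in the other groups. *Zbp1* rose as well in untreated FL/FL cells. Its call was lost with RLE factors and without replicate 2 of day 2 or either library of day 3. Of all genes, 15.1% rose in treated FL/FL, 17.7% in treated WT/FL, 18.7% in untreated FL/FL and 17.1% in untreated WT/FL cells.

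From day 3 to day 4, 0 of the 8 genes fell in treated FL/FL cells (5.7% of all genes), whereas 6 each fell in treated WT/FL (5.93%), untreated FL/FL (7.18%) and untreated WT/FL cells (6.39%). These 6 were *Casp1*, *Casp4*, *Gsdmd*, *Mlkl*, *Zbp1* and *Tnfsf10*. In treated FL/FL cells 2 of 8 had an unadjusted p below 0.05, as did 27.5% of all genes, and upper-quartile factors and DESeq2 each called 1. *Tnfsf10* changed by -0.26 ± 0.19 on the log2 scale in treated FL/FL cells (adjusted p = 0.40) and by -2.14 ± 0.21, -2.03 ± 0.21 and -2.14 ± 0.22 in the other groups. For *Zbp1* the changes were -0.05 ± 0.15 (adjusted p = 0.89) and -1.43 ± 0.16, -1.23 ± 0.16 and -1.36 ± 0.16. For untreated FL/FL cells the count of 6 was 3 without replicate 1 of day 3 or replicate 1 of day 4, when *Casp1*, *Mlkl* and *Gsdmd* lost their calls, and *Gsdmd* (-0.19 ± 0.05, adjusted p = 0.0083) also lost its call without either other library, with other scaling factors and with DESeq2. In untreated WT/FL cells *Mlkl* lost its call without replicate 2 of day 3 or replicate 1 of day 4, and *Casp1* without any library except replicate 1 of day 4.

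**Figure D4:**
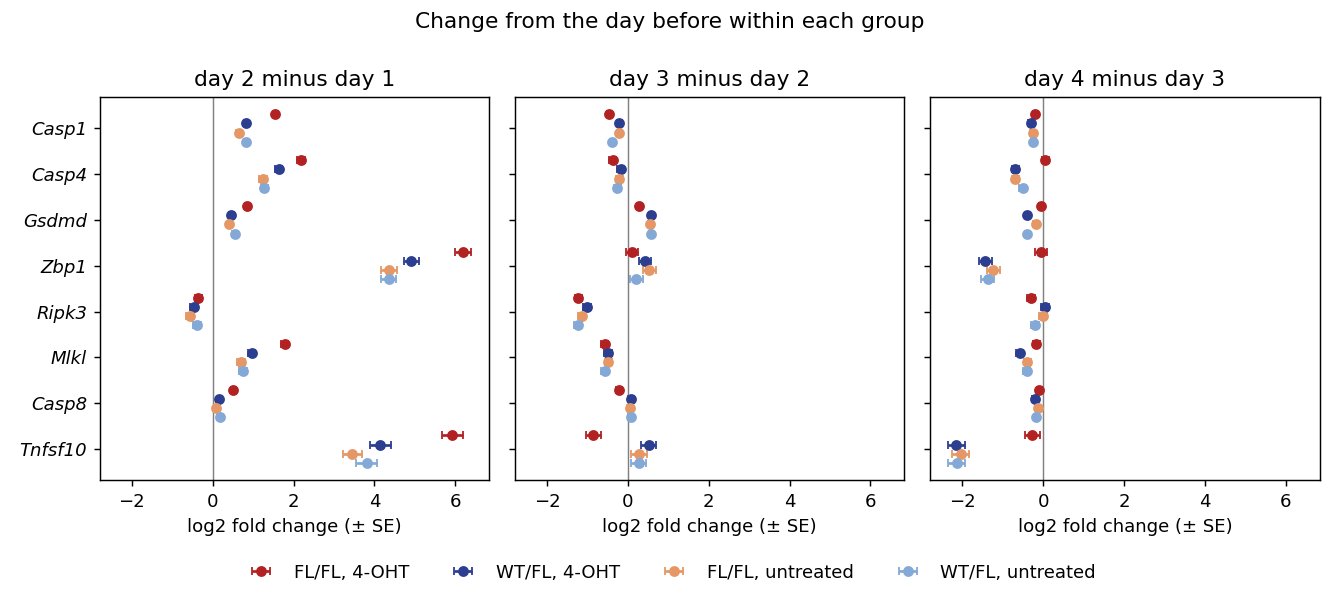
Log2 fold change from the day before within each combination of genotype and treatment (colours), with bars of 1 SE from the edgeR fit. *Zbp1* and *Tnfsf10* rose by 3.46 or more from day 1 to day 2 in all 4 groups, and from day 3 to day 4 they fell by 1.23 or more in the 3 groups other than treated FL/FL.

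Whether the difference between treated genotypes itself changed from day to day was tested in the same model. From day 1 to day 2 it grew for 6 of the 8 genes (2.67% of all genes), namely *Casp1*, *Casp4*, *Gsdmd*, *Mlkl*, *Zbp1* and *Tnfsf10*. This count was 2 without replicate 1 of treated WT/FL on day 1, and 3 without replicate 2 of treated WT/FL on day 1, replicate 2 of treated WT/FL on day 2 or either treated FL/FL library of day 2. The call of *Gsdmd* was lost without replicate 1 of treated WT/FL on day 1, that of *Zbp1* without any library except replicate 1 of treated WT/FL on day 2, that of *Tnfsf10* without any except that library and replicate 1 of treated FL/FL on day 1, and that of *Casp4* without any except that library and replicate 2 of treated FL/FL on day 1. From day 2 to day 3 it shrank for *Tnfsf10* only (0.577% of all genes), by -1.37 ± 0.27 on the log2 scale (adjusted p = 0.0064). That call was lost without any 1 of 7 of the 8 libraries compared, and it held without replicate 1 of treated WT/FL on day 2. From day 3 to day 4 the difference grew for 4 genes (1.67% of all genes), by 0.73 ± 0.12 for *Casp4*, 0.34 ± 0.07 for *Gsdmd*, 1.38 ± 0.22 for *Zbp1* and 1.88 ± 0.28 for *Tnfsf10*. The call of *Gsdmd* was lost without any 1 library except replicate 1 of treated FL/FL on day 3 and replicate 2 of treated FL/FL on day 4, and without the filter on low counts.

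Levels of different genes were compared as CPM per kb of exons. The length was that of all annotated exons of a gene in GENCODE vM39, merged, and not of the transcripts present in the cells. The order of the genes therefore depends in part on the annotation. In the group with its highest mean, *Zbp1* reached 94.4 CPM per kb, *Casp1* 64.9, *Gsdmd* 59.7, *Casp8* 44.0, *Ripk3* 26.5, *Casp4* 17.1, *Mlkl* 15.5 and *Tnfsf10* 10.8 CPM per kb. In the group with its lowest mean, *Casp8* led with 30.8 CPM per kb, followed by *Gsdmd* with 23.5, *Casp1* with 22.1, *Ripk3* with 6.53, *Mlkl* with 3.79, *Casp4* with 3.52, *Zbp1* with 1.11 and *Tnfsf10* with 0.140 CPM per kb. Ordered by mean CPM, the 3 highest of the 16 groups were those of treated FL/FL cells on days 2, 3 and 4 for *Casp1*, *Casp4*, *Mlkl*, *Zbp1* and *Tnfsf10*. For *Casp1*, *Mlkl* and *Tnfsf10* these stood in the order of days 2, 3 and 4, and the libraries of treated FL/FL on day 4 overlapped with those of treated WT/FL on day 2 for *Casp1*. For *Zbp1* days 3 and 4 overlapped and for *Casp4* days 4 and 3 did. *Ripk3* was highest in the 4 groups of day 1, whose neighbours in this order overlapped. Of the 15 pairs of neighbours in the order, 13 overlapped for *Ripk3*, 12 for *Casp8*, 9 for *Tnfsf10*, 8 each for *Casp1*, *Mlkl* and *Zbp1*, 6 for *Casp4* and 3 for *Gsdmd*. These orders and overlaps were not counted over all genes, so they are not a trait of these 8 genes.

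The pattern of the genes over the 16 group means of log2 CPM was compared with all other tested genes by Pearson's r, as a description of groups that share days and libraries. *Zbp1* was most like *Rigi* (r = 0.999), *Trim30a* (0.999) and *Ifi47* (0.998). *Tnfsf10* was most like *Trim21* (0.997), *Gbp3* (0.996) and *Gbp2* (0.995), and *Casp4* most like *Ube2l6* (0.992), *Eif2ak2* (0.991) and *Tlr3* (0.99). *Mlkl* came closest to *Dck* (0.99), *Setdb2* (0.99) and *Tpst1* (0.985), *Casp1* to *Psme2* (0.984), *Phf11c* (0.981) and *Etnk1* (0.981), and *Gsdmd* to *Cfb* (0.987), *Rgs2* (0.986) and *Tent2* (0.985). *Ripk3* was most like *S100a10* (0.992), *Cd109* (0.992) and *Mpp7* (0.991). For *Casp8* the best match was weaker, with 0.933 for *Xrn2*, 0.92 for *Dll1* and 0.916 for *Ppm1k*. Among the 8 genes themselves, r was highest for *Casp4* with *Tnfsf10* (0.976) and *Zbp1* with *Tnfsf10* (0.97) and lowest for *Gsdmd* with *Ripk3* (-0.848).

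Other genes of the death pathways were taken from 5 lists of 80 genes, of which 72 passed the filter. These lists were also chosen with earlier results of these data known. Between treated FL/FL and treated WT/FL cells, 0 of the 72 passed an adjusted p below 0.01 on day 1. Day 2 had 13 higher genes and 1 lower gene, day 3 had 12 and 7, and day 4 had 22 and 6. Of all tested genes, 5.69% were higher and 2.48% lower by this rule on day 2, 6.69% and 5.42% on day 3, and 9.84% and 11.7% on day 4, and 0.0131% were lower on day 1. With 1 library left out, 7 to 10 were higher on day 2 (lowest without replicate 2 of treated FL/FL, and 8 without replicate 1), 5 to 9 higher on day 3 and 2 to 7 lower on day 3. The lowest of day 3 came without replicate 1 of treated WT/FL, and the values without replicate 1 and replicate 2 of treated FL/FL were 6 and 7 higher and 3 and 4 lower. The 1 lower gene of day 2 was lost without replicate 2 of treated WT/FL or either treated FL/FL library, and on day 4 there were 3 lower without replicate 1 of treated WT/FL. The median log2 fold change of the 72 on day 4 was 0.14.

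Of all tested genes, 9.84% were higher and 11.7% lower on day 4. Among inflammasome sensors, adaptors and pyroptosis substrates, 7 of 20 were higher and 2 lower on this day, and 11 did not pass. *Il18*, an interleukin that caspase-1 matures, was at 13.7 ± 0.2 CPM (SD, n = 2) in treated FL/FL and 6.42 ± 0.67 CPM in treated WT/FL cells (log2 fold change 1.10 ± 0.15 SE). *Il1b*, the other such interleukin, was at 33.5 ± 4.0 and 16.4 ± 0.7 CPM (1.03 ± 0.23). *Nlrc4*, an inflammasome adaptor, was lower (-0.50 ± 0.08), as was *Ninj1*, which ruptures the membrane of dying cells (-0.28 ± 0.07). Of the death receptors, ligands and their signalling complex, 2 of 11 were higher, namely *Tnf* (0.64 ± 0.12) and the caspase-8 inhibitor *Cflar* (0.39 ± 0.06), and 1 was lower, the death receptor *Fas* (-0.76 ± 0.13).

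Among brakes of necroptosis and ubiquitin enzymes, 5 of 13 were higher and 1 lower on day 4 (9.84% and 11.7% of all genes). *Adar*, an RNA editing enzyme known to restrain ZBP1, was at 339 ± 4 CPM in treated FL/FL and 167 ± 12 CPM in treated WT/FL cells (log2 fold change 1.02 ± 0.08 SE). *Rnf31*, a part of the linear ubiquitin ligase, was higher (0.93 ± 0.09), and *Birc3*, a ubiquitin ligase of the TNF receptor complex, was lower (-0.30 ± 0.07). Of the other caspases and the apoptosome, 2 of 11 were higher, among them *Cycs*, which encodes cytochrome c (0.73 ± 0.08), and *Casp6* was lower (-0.38 ± 0.09).

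In the BCL2 family 6 of 17 genes were higher and 1 lower on day 4 (9.84% and 11.7% of all genes). *Bcl2l1*, which encodes the survival protein BCL-XL, was at 69.9 ± 6.3 CPM in treated FL/FL and 41.5 ± 4.3 CPM in treated WT/FL cells (log2 fold change 0.75 ± 0.09 SE), and the death-promoting *Bmf* was lower (-0.68 ± 0.15). *Bcl2a1d*, of the A1 group of survival genes, was the 1 list gene past both thresholds on day 4, with 5.95 ± 0.63 and 1.46 ± 0.51 CPM (2.04 ± 0.27), and its relative *Bcl2a1a* the 1 on day 3, with 2.15 ± 0.60 and 0.436 ± 0.111 CPM (2.28 ± 0.59). These relatives are near copies, and 86.9% of the words of *Bcl2a1d* and 78.2% of those of *Bcl2a1a* occur in other genes, so their separate values are uncertain. The *Bcl2a1a* call of day 3 was lost without any 1 of the 4 libraries compared (adjusted p 0.0117 to 0.0793). On day 4, *Bmf* lost its adjusted p below 0.01 without any 1 of the 4 libraries (0.0101 to 0.0309), *Casp6* without any except replicate 2 of treated WT/FL (0.0137 to 0.0276), and *Il1b* without any except replicate 2 of treated FL/FL (0.0126 to 0.0235). *Ninj1* lost it without replicate 1 of treated WT/FL or replicate 2 of treated FL/FL (0.0649 and 0.0474).

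**Figure D5:**
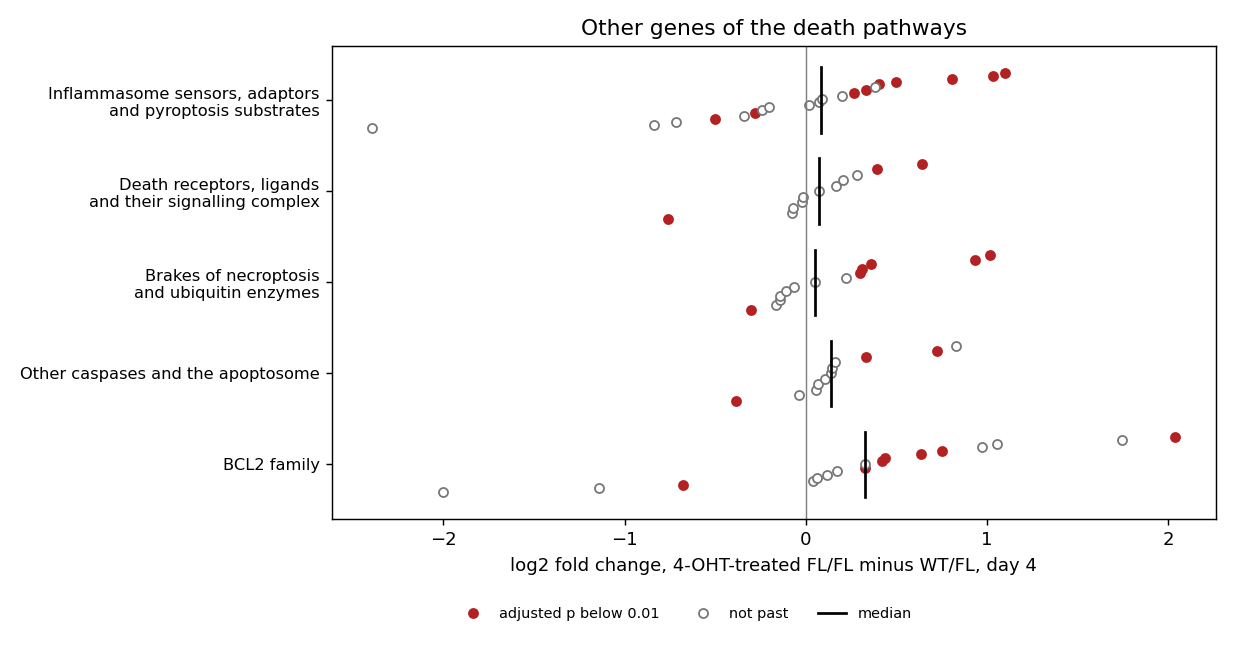
Log2 fold change of treated FL/FL minus treated WT/FL cells on day 4 for the 72 tested genes of 5 lists of other death pathway genes. Each point is 1 gene, filled where the adjusted p is below 0.01 (22 higher, 6 lower), and black lines are list medians, which lie between 0.05 and 0.33.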

How the data were processed

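JE was used by the authors for demultiplexing, FastQC for read quality, Salmon for quantification of transcripts and tximport for sums per gene, with GRCm39 as the build. Estimated counts per gene were deposited by the authors as whole numbers without normalization, so no rounding was needed, and the transcript length correction of tximport was not applied. The annotation release is not given in the sources used here. Of 54281 identifiers, 51048 matched GENCODE vM39, and the others held 0.32% of the counts. Totals of 35120505 to 63760884 counts left the fewest counts per library for *Tnfsf10* (29 to 66 on day 1, 136 to 230 on day 4 outside treated FL/FL) and for *Zbp1* on day 1 (237 to 343).

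Tests were run on the counts with edgeR 4.0.16 and R 4.3.3 (glmQLFit, robust, and glmQLFTest) with TMM factors, 1 mean for each of 16 groups and 16 residual degrees of freedom. A minimum count of 10 left 15257 genes. The common biological coefficient of variation came to 0.0912. p-values were adjusted by Benjamini-Hochberg over all 15257 genes at a threshold of 0.01, with a log2 fold change limit of 1.5. An exact test of 2 against 2 libraries cannot go below p = 0.33. Counts of the 2 libraries in each group lay further apart than counting error gives. The chi-square for each degree of freedom was 47 in untreated FL/FL cells on day 1 and 8.55 to 19.5 in the other groups. The members, lists and tests were chosen with earlier results of these data known. From each list the text names genes past both thresholds on any day and the 2 largest increases and decreases of day 4 at an adjusted p below 0.01, and 1 gene so chosen is not reported here. The fit was tested on simulated data for the day 4 comparison over 15080 genes. It recovered 195 of 200 genes simulated with a log2 fold change of 2, with 0 false calls. This does not cover smaller differences or the other comparisons. The alternatives tried were other scaling (RLE, upper quartile), DESeq2 1.42.0, no filter or a minimum count of 50, fits of 16 or 4 libraries, other thresholds and leaving out each library.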

Additional observations from a re-analysis of the deposited data

Results flagged for a closer look

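The effect of 4-OHT, given as treated minus untreated cells on the log2 scale, differed between FL/FL and WT/FL cells by the interaction test of edgeR (Benjamini-Hochberg adjusted p below 0.01 over all genes) for 16 combinations of gene and day. On day 2 the FL/FL effect exceeded the WT/FL effect by 0.80 for *Casp1*, 0.64 for *Casp4*, 0.46 for *Gsdmd*, 0.96 for *Mlkl*, 1.65 for *Zbp1* and 2.09 for *Tnfsf10*. On day 3 it did so by 0.38 for *Casp1*, 0.78 for *Mlkl* and 1.01 for *Zbp1*. On day 4 the excess was 0.52 for *Casp1*, 1.30 for *Casp4*, 0.33 for *Gsdmd*, 1.18 for *Mlkl*, 2.25 for *Zbp1* and 2.48 for *Tnfsf10*, and for *Ripk3* the difference was -0.67. Leaving out 1 library ended the call of *Casp4* on day 2 (adjusted p up to 0.0159, without replicate 1 of untreated WT/FL), of *Casp1* on day 3 (up to 0.016, without replicate 1 of treated WT/FL), of *Zbp1* on day 3 for 7 of the 8 libraries (0.011 to 0.0476, held without replicate 2 of treated WT/FL), of *Gsdmd* on day 4 (up to 0.0198, without replicate 1 of treated FL/FL) and of *Ripk3* on day 4 (up to 0.0139, without replicate 2 of treated FL/FL).

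The difference between treated FL/FL and treated WT/FL cells changed from the day before, by the test of that change in the same fit, for 11 combinations. From day 1 to day 2 it grew by 0.73 for *Casp1*, 0.56 for *Casp4*, 0.39 for *Gsdmd*, 0.82 for *Mlkl*, 1.28 for *Zbp1* and 1.78 for *Tnfsf10*. From day 2 to day 3 it changed by -1.37 for *Tnfsf10*, and from day 3 to day 4 it grew by 0.73 for *Casp4*, 0.34 for *Gsdmd*, 1.38 for *Zbp1* and 1.88 for *Tnfsf10*. From day 1 to day 2, leaving out 1 library ended the call of *Casp4* and *Tnfsf10* for 6 of the 8 libraries each, of *Zbp1* for 7 and of *Gsdmd* for 1 (replicate 1 of treated WT/FL on day 1, adjusted p = 0.0137). The call of *Tnfsf10* from day 2 to day 3 ended for 7 of 8 (0.0145 to 0.0461) and that of *Gsdmd* from day 3 to day 4 for 6 of 8 (0.0121 to 0.0396). With 2 libraries per group, no library could be tested as standing apart within its group.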

How the results depend on the processing

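No paired analysis was possible by stated labels, because the labels give no replicate number, animal or batch, and the numbers used here only name libraries. Sample titles run in sequence over the days for each such number within a genotype and treatment. Neutrophil marker sums of treated WT/FL cells were higher in replicate 1 on each day (18.8 against 5.96 CPM on day 3). Those of untreated FL/FL cells were higher in replicate 2 on each day, and elsewhere the order changed between days. The tests treated all libraries as independent, and whether those of different days or treatments came from the same animals is not known. A pairing by the sequence of titles was not tested. Where a library was left out, the lone library of its group was assumed to vary like the other groups. At a log2 fold change limit of 1 in place of 1.5, *Tnfsf10* and *Zbp1* were called on day 2 and *Zbp1* on day 3. On day 4 *Tnfsf10*, *Zbp1*, *Mlkl* and *Casp4* were called. Shares of all genes are not given for this limit or for the other alternatives below. Without the filter on low counts, 4-OHT changed 2 genes in WT/FL cells on day 3 and 1 on day 4. With DESeq2, 2 genes changed their genotype difference from day 2 to day 3. Upper-quartile factors gave 1 gene lower on day 4 than on day 3 in treated FL/FL cells, and DESeq2 also gave 1. With each library left out in turn, the called genes numbered 1 to 2 on day 2, those higher on day 3 numbered 3 to 4, and those lower on day 4 numbered 0 to 1. The interaction gave 1 to 3 genes on day 3 and 0 to 1 lower on day 4. The genotype difference changed for 2 to 6 genes from day 1 to day 2 and for 0 to 1 from day 2 to day 3, and 3 to 5 genes fell from day 3 to day 4 in untreated FL/FL cells. Of the other death pathway genes, 7 to 10 were then higher and 0 to 1 lower on day 2, 5 to 9 higher and 2 to 7 lower on day 3, and 3 to 6 lower on day 4. The 1 lower gene of day 2 was 0 with RLE factors or a minimum count of 50, and 2 without a filter or with DESeq2. Signs turned only for differences that had not passed the test, namely *Ripk3* on day 1 (-0.103 to 0.00969), *Tnfsf10* on day 1 (-0.149 to 0.694) and *Casp8* on day 3 (-0.0714 to 0.00661). The cause of these moves was not tested. Each fit with a library left out also had fewer samples.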
